A study of Mus musculus with 4 samples.

Results

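The genes described here are the collagens, together with the enzymes that hydroxylate procollagen chains or cross-link collagen, in D2.OR cells with and without the long non-coding RNA BORG. They were taken as all rows of the deposited table whose Ensembl identifier carried a GENCODE M21 symbol of the form Col, number, a, number, or was one of the lysyl hydroxylases (Plod1 to Plod3), the prolyl 4-hydroxylase alpha subunits (P4ha1 to P4ha3), the lysyl oxidases (Lox and Loxl1 to Loxl4) or the prolyl 3-hydroxylase family (P3h1 to P3h4). This gave 59 of the 48432 identifiers in the table: 11 fibrillar collagens, 6 type IV collagens of basement membranes, 27 other collagens and 15 enzymes. The rule used gene names only.

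D2.OR is a mouse mammary cell line that is used as a model of dormancy at metastatic sites. Cells expressing BORG (2 libraries) were set against parental cells (2 libraries). Both were grown for 7 days in 3D culture with a reconstituted basement membrane (Cultrex) and sequenced as stranded total RNA, and the design text calls the libraries of a group biological duplicates. Both groups are derivatives of 1 cell line. The table names the parental condition Empty; whether that stands for an empty vector is not stated, and an effect of a vector and one of BORG cannot be told apart. BORG's own level was not analysed here, so the group labels have no such check.

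Procollagen chains are made at the endoplasmic reticulum, where prolyl 4-hydroxylases stabilise the triple helix, lysyl hydroxylases mark residues for glycosylation and cross-linking, and prolyl 3-hydroxylases modify selected prolines. Trimers leave the cell, have their propeptides removed and are joined covalently by lysyl oxidases. Fibrillar collagens build the fibres of connective tissue, type IV builds the network of basement membranes, type VI forms beaded filaments around cells, and mammary epithelium normally rests on a basement membrane while the stroma supplies most fibrillar collagen.

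The BORG-expressing libraries held 7900767 and 27131662 fragments assigned to genes, against 24176438 and 30322679 in the parental libraries, so BORG replicate 1 was the shallowest by 3.84-fold against the deepest. The collagen and enzyme genes took 1.72% and 1.80% of the fragments in the BORG-expressing libraries, and 1.71% in each parental library. Markers of epithelial cells summed to 1829 and 1841 CPM (fragments of a gene per M fragments of the library, scaled by TMM factors) in BORG-expressing cells and to 2253 and 2195 CPM in parental cells, nearly all of it Krt8 and Krt18, simple-epithelium keratins. Krt18 alone of these markers fell (log2 fold change -0.69, edgeR adjusted p = 0.00175), while 4 of the 6 were higher, Krt8 by 0.28, Cdh1 by 1.12, Krt7 by 1.89 and Krt19 by 3.29 (edgeR adjusted p = 0.00213 to 0.0489), so the sum and the median log2 fold change of the list, 0.81, differed in sign. All 6 epithelial markers had fragments in every library. Krt19 had only 6 and 21 fragments in BORG-expressing libraries and 1 and 3 in parental libraries, so its change of 3.29 rests on few fragments. The adhesion molecule Epcam was also low, at 17 and 81 fragments in BORG-expressing libraries and 52 and 46 in parental libraries. Markers of fibroblasts summed to 593 and 502 CPM in BORG-expressing cells and 725 and 795 CPM in parental cells, nearly all of it Pdgfra, the platelet-derived growth factor receptor alpha. Pdgfra was lower (log2 fold change -0.46, edgeR adjusted p = 0.0232), and so was Pdgfrb (-0.77, edgeR adjusted p = 0.00564). Thy1 and Dpt, which mark fibroblasts, had 0 fragments in every library, and Dcn and Lum had at most 6 in any. Endothelial markers summed to 3.54 and 3.21 CPM in BORG-expressing cells and 9.33 and 10.6 CPM in parental cells. Of these, Kdr (log2 fold change -2.27, edgeR adjusted p = 0.00267) and Cdh5 (-1.24, edgeR adjusted p = 0.0317) were lower. Pecam1 went the other way and did not pass (2.15, edgeR adjusted p = 0.0923). It had 4 and 24 fragments in BORG-expressing libraries and 1 and 8 in parental libraries. Leukocyte markers summed to 11.5 and 12.5 CPM in BORG-expressing cells and 8.15 and 8.78 CPM in parental cells, nearly all of it Cd68, a macrophage marker, which was higher by 0.73 (edgeR adjusted p = 0.0191). Ptprc, which marks leukocytes in general, fell, with 1 and 6 fragments in BORG-expressing libraries against 31 and 40 in parental libraries (log2 fold change -2.74, edgeR adjusted p = 0.0119), and Cd3e, which marks T cells, had no more than 1 fragment in any library. Both groups come from 1 cell line, so the lists describe transcripts of that line and are not a count of separate cell types. In bulk libraries, fewer cells that express a gene and less of its RNA per cell cannot be told apart. The part of the marker differences in the collagen results was not tested.

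Most collagen transcript per length in these cells was of type VI. On the FPKM scale, which is per length of transcript and lets levels of different genes be set side by side, 24 of the 59 genes averaged at least 1 FPKM over the 4 libraries, 16 at least 10 FPKM and 6 at least 100 FPKM. Over all 48432 identifiers, 12747, 6534 and 721 reached these levels, which are smaller shares. Those 6 were Col6a1, Col6a2, Col6a3, Col5a3, Col18a1 and P4ha1. Type VI chains made up 73.0% and 73.4% of the summed collagen FPKM in BORG-expressing cells, against 78.5% and 79.3% in parental cells. Fibrillar chains made up 17.4% and 16.1% in BORG-expressing cells, against 11.6% and 10.3% in parental cells. Type IV chains made up 2.74% and 3.23% in BORG-expressing cells, against 2.06% and 2.37% in parental cells. The libraries of the groups did not overlap in any of these shares, so the summed collagen of BORG-expressing cells had the larger fibrillar and type IV portions and the smaller type VI portion. Single genes weighed heavily in these portions. Col5a3 alone made up 12.1% and 10.5% in BORG-expressing cells, against 6.48% and 5.74% in parental cells. The share of Col6a1 went against the type VI total, at 48.2% and 47.6% in BORG-expressing cells and 43.5% and 44.3% in parental cells. With 2 libraries per group an exact permutation test cannot give a two-sided p below 0.333. FPKM of the same library are compared here because FPKM of the replicates differed more than their CPM: over the 25 genes that averaged at least 100 fragments in the BORG-expressing libraries, replicate 1 over replicate 2 had a median ratio of 1.47 in FPKM and 0.965 in CPM, and over the 28 such genes in the parental libraries, 1.15 in FPKM and 1.04 in CPM.

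**Figure D1:**
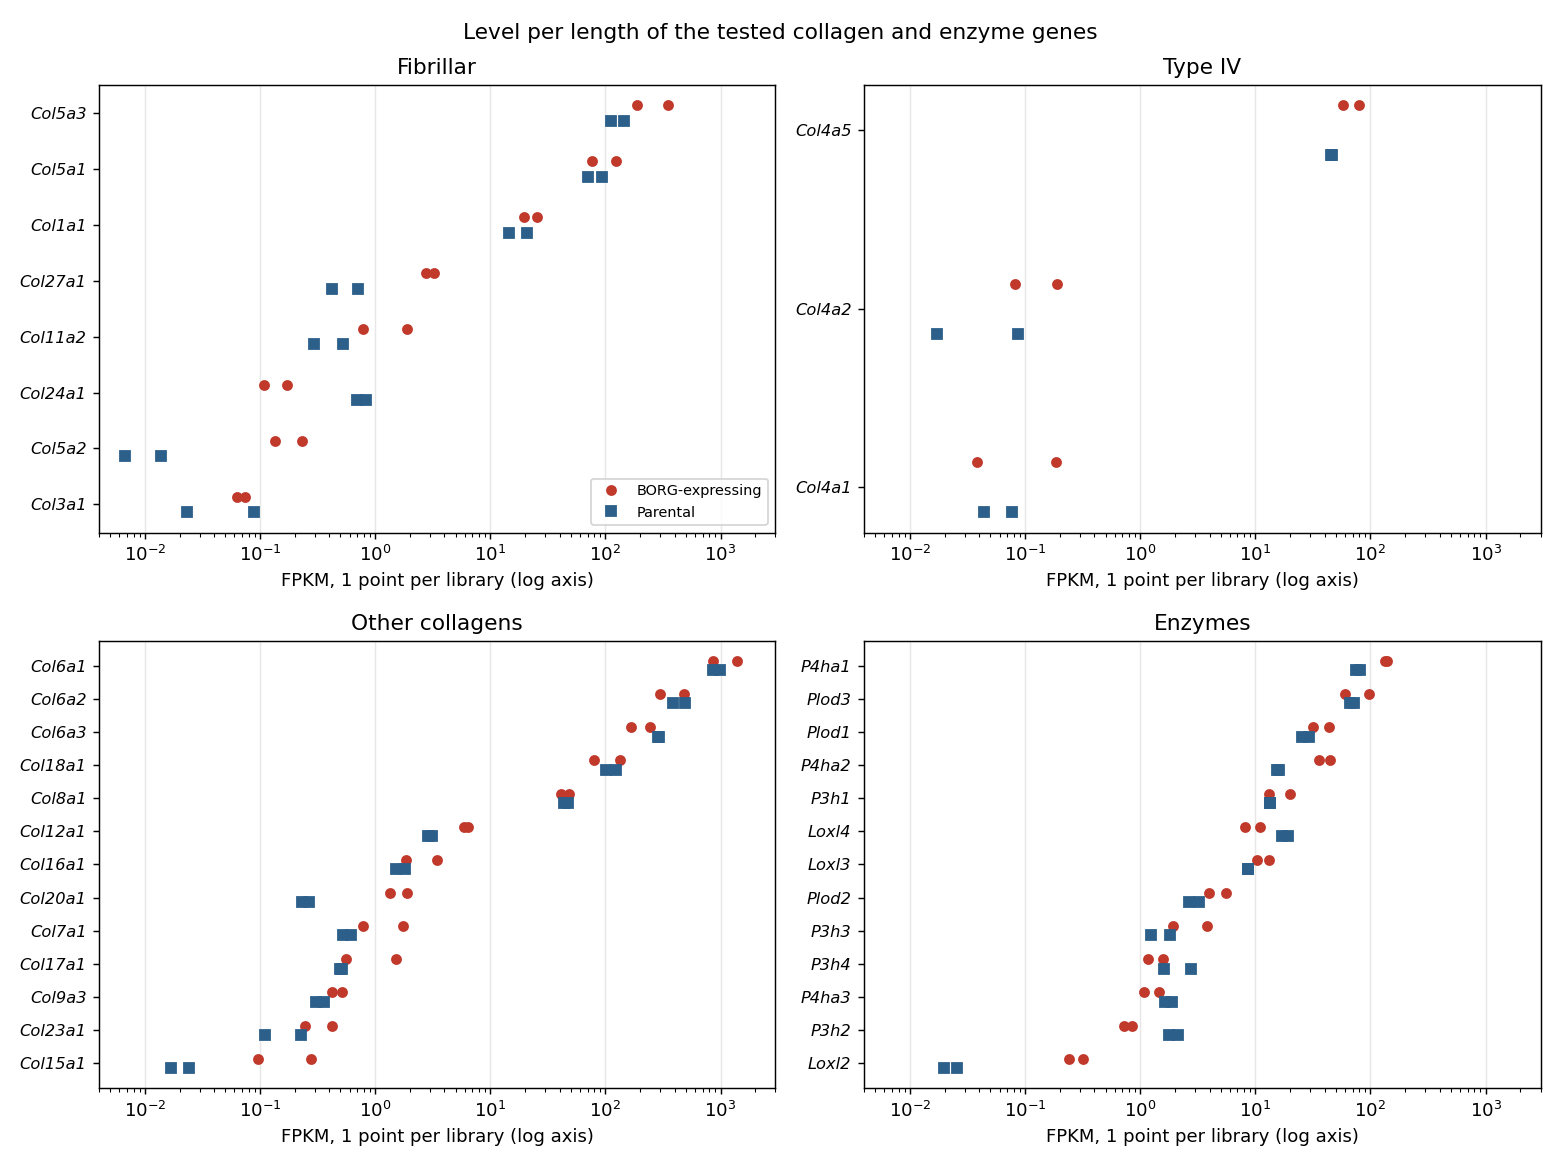
Level of each tested collagen and enzyme gene in FPKM (log axis), by class, with 1 point per library, circles for BORG-expressing and squares for parental cells. Col6a1 stands highest at 855.5 to 1403 FPKM over the libraries, and Col5a3, Col27a1 and P4ha2 have both circles to the right of both squares, while Col24a1 and Loxl4 have them to the left.

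Of the 59 genes, 37 had enough fragments to be tested and 22 did not. Among the 37, 14 were higher and 5 lower in BORG-expressing cells at an adjusted p of 0.05 in edgeR's quasi-likelihood test, adjusted over all 15116 genes tested, and 18 did not pass. The 19 called genes are 51.4% of those tested; over all genes 41.1% were called, 19.9% higher and 21.3% lower. The median log2 fold change was 0.44 over the 37 genes and 0.02 over all genes tested. In CPM, both BORG-expressing libraries were above both parental libraries in 23 of the 37 genes and below both in 8. Over all 15116 genes tested, 5529 were above and 5443 below, so groups without overlap were common. The 22 untested genes had 1 to 29 fragments over the 4 libraries together and at most 11 in any library. They are 20 collagens, Lox and Loxl1. Ranges over the alternatives below include a block with crossed replicate numbers, added after the data had been seen. In that fit 61.6% of all genes tested were called. It gave the lowest adjusted p printed for Col1a1, Col17a1, P3h4, Ddr1 and Pcolce. Of the called genes, Col20a1, Col24a1, Col27a1, Col4a5, Col5a2, Col6a3, Col7a1, Loxl2, Loxl3 and P3h2 overlap another annotated gene on the same strand, mostly a microRNA or a predicted gene, so their counts are uncertain to that extent.

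**Figure D2:**
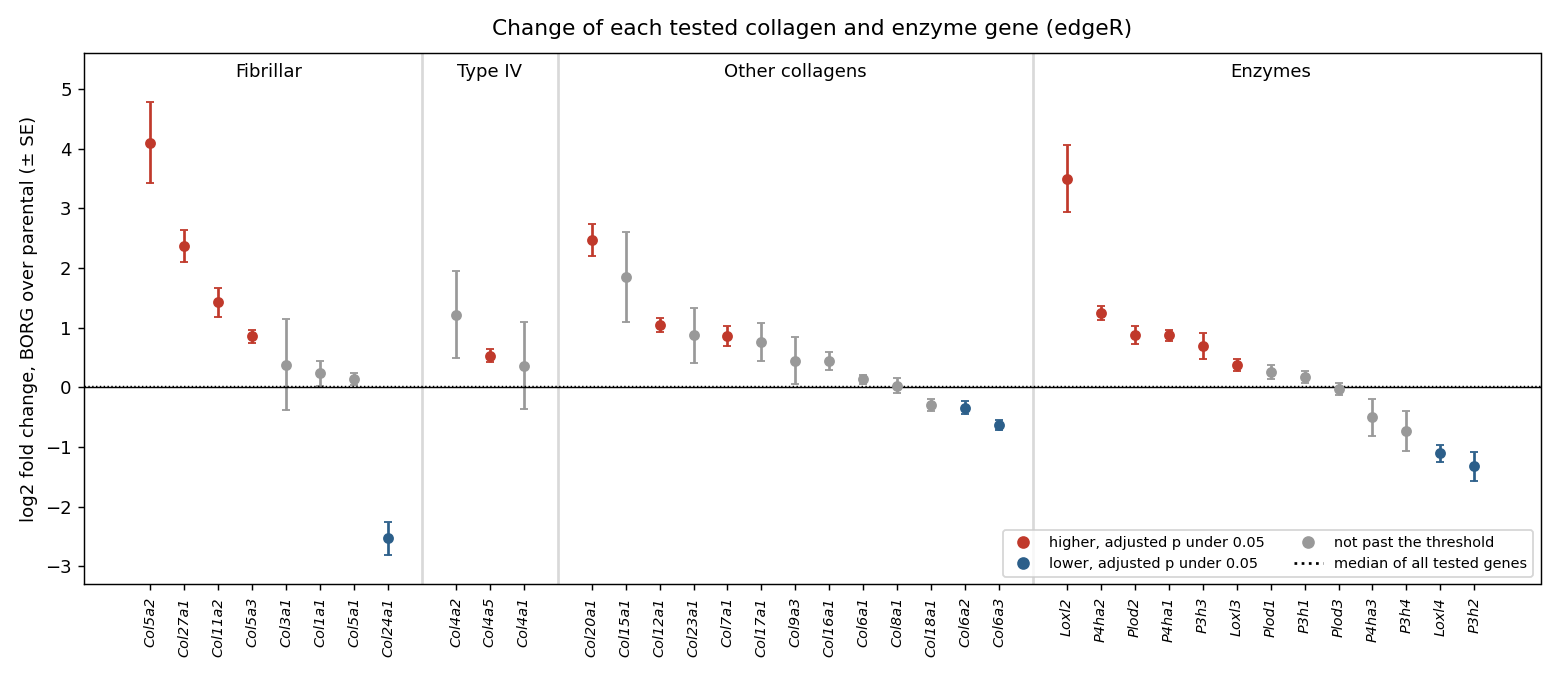
Log2 fold change of BORG-expressing over parental cells for the 37 tested genes, by class, with its standard error; red marks genes called higher, blue genes called lower and grey genes past no threshold. The points run from 4.10 for Col5a2 to -2.53 for Col24a1, and the dotted line at 0.02 is the median of all genes tested.

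Among the fibrillar collagens, 4 of 8 tested genes were higher, 1 was lower and 3 did not pass, with a median log2 fold change of 0.62. The type V chain Col5a3, which was the most abundant fibrillar collagen, was the one of the 3 abundant chains that passed. Type V collagen co-assembles with type I and sets fibril diameter. Col5a3 (chromosome 9, 20770050 to 20815067, minus strand, GRCm38) had 2095 and 2350 CPM in BORG-expressing cells, against 1276 and 1185 CPM in parental cells. It was higher by 0.85 ± 0.10 on the log2 scale (SE, n = 2 per group, edgeR adjusted p = 0.00145), and the groups did not overlap; limma on log2(FPKM + 1) gave 1.02 and an adjusted p of 0.0504, the highest over the alternatives (lowest 1.01e-24). Col5a1, the chain found in most type V trimers, had 1009 and 1129 CPM in BORG-expressing cells and 1018 and 921 CPM in parental cells. The groups overlapped and the change of 0.14 ± 0.11 did not pass (edgeR adjusted p = 0.329). Within a library, the FPKM of Col5a3 were 2.83 and 2.49 times those of Col5a1 in BORG-expressing cells, against 1.57 and 1.56 times in parental cells. The other type V chain, Col5a2, was close to absent in parental cells, with 3 and 2 fragments, and had 17 and 37 fragments in BORG-expressing cells. Its log2 fold change of 4.10 ± 0.68 passed (edgeR adjusted p = 0.00464), but it rests on 5 parental fragments, and with limma on log2(FPKM + 1) the change was 0.23 and its adjusted p 0.114, the highest over the alternatives (lowest 7.8e-06).

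Type I collagen, the main fibril of bone, skin and stroma, is a trimer of Col1a1 and Col1a2 chains, and here the 2 transcripts stood far apart. Col1a1 had 121 and 181 CPM in BORG-expressing cells and 143 and 115 CPM in parental cells. The groups overlapped, and the difference of 0.23 ± 0.21 did not pass (edgeR adjusted p = 0.411); without BORG replicate 1 it was 0.48 (adjusted p = 0.043), and without BORG replicate 2 it was -0.09 (adjusted p over the alternatives 0.00384 to 0.843). Col1a2 had only 2 and 8 fragments in the BORG-expressing libraries and 9 and 10 in the parental libraries. The FPKM of Col1a1 were 508 and 527 times those of Col1a2 in BORG-expressing cells, and 348 and 306 times in parental cells. Col3a1, the type III chain that accompanies type I in soft tissue, had 4 and 16 fragments in BORG-expressing cells and 16 and 6 in parental cells, and did not pass (edgeR adjusted p = 0.726). Col2a1 and Col11a1, cartilage collagens, were untested.

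The low-abundance fibrillar genes moved in both directions. Col27a1 (chromosome 4, 63214004 to 63334991, plus strand), a fibrillar collagen of cartilage and developing tissues, had 24.5 and 37.7 CPM in BORG-expressing cells, against 7.15 and 5.08 CPM in parental cells. Its rise was 2.37 ± 0.27 on the log2 scale (edgeR adjusted p = 0.00123). Col11a2, a type XI chain that nucleates cartilage fibrils, had 10.6 and 9.73 CPM in BORG-expressing cells, against 4.41 and 3.14 CPM in parental cells. Its rise of 1.43 ± 0.25 passed (edgeR adjusted p = 0.0054), a call lost with limma on log2(FPKM + 1), where it was 0.69 with an adjusted p of 0.0604, and on log2(FPKM + 0.1), where the adjusted p was 0.0502 (lowest over the alternatives 5.86e-08). Both genes had every BORG-expressing library above every parental library. Col24a1 (chromosome 3, 145292472 to 145552011, plus strand), which belongs with Col27a1 to a branch of the fibrillar family of its own and is known from developing bone, was lower, with 1.64 and 1.24 CPM in BORG-expressing cells against 8.28 and 7.73 CPM in parental cells. It fell by 2.53 ± 0.27 (edgeR adjusted p = 9.95e-04), the lowest log2 fold change of all 37 tested genes.

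Of the 6 type IV genes 3 were tested, of which 1 was higher and the other two did not pass. Type IV trimers of most basement membranes are built from Col4a1 and Col4a2, but in these cells Col4a5, a chain of specialised basement membranes such as that of the glomerulus, held nearly all type IV transcript. Col4a5 had 684 and 615 CPM in BORG-expressing cells, against 426 and 475 CPM in parental cells. It was higher by 0.53 ± 0.11 on the log2 scale (edgeR adjusted p = 0.0103), with no overlap between groups; the call was lost in 4 of 13 alternatives, among them leaving out parental replicate 1, where the change was 0.40 and its adjusted p 0.158, the highest over the alternatives (lowest 2.17e-11). Col4a2 had 1.26 and 1.06 CPM in BORG-expressing cells and 0.799 and 0.198 CPM in parental cells and did not pass (log2 fold change 1.22 ± 0.73, edgeR adjusted p = 0.229). Col4a1 had 11 and 13 fragments in BORG-expressing cells and 10 and 26 in parental cells; in CPM the groups overlapped, and it did not pass (0.37 ± 0.74, edgeR adjusted p = 0.725), turning to -0.45 without BORG replicate 1 and to -0.08 without parental replicate 1. These genes overlap each other on opposite strands. Col4a3, Col4a4 and Col4a6 had at most 7 fragments in any library.

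Type IV genes lie in head-to-head pairs that share the stretch between their start sites. Col4a1 and Col4a2 start 21 bp apart and Col4a3 and Col4a4 72 bp apart in GENCODE M21, while Col4a5 and Col4a6 start 1309 bp apart on the X chromosome. In the last pair the levels were far apart. Col4a5 had 79.3 and 58.1 FPKM in BORG-expressing cells and 46.3 and 45.6 FPKM in parental cells, whereas Col4a6 had 1 and 3 fragments in BORG-expressing cells and 0 and 7 in parental cells. The sequences upstream of the 2 start sites are shown because the genes face away from each other over a short stretch and only Col4a5 had more than 7 fragments in any library. They come from RefSeq on GRCm38.p6, run 5′ to 3′ on each gene's own strand and leave out bases within an annotated exon, so that the Col4a5 stretch stops 34 bases short of its RefSeq start. Capitals mark CCAAT, read by NF-Y, and GGGCGG, read by SP1, each on either strand. The Col4a5 stretch is chrX:141475169-141475384 (plus strand, 216 bases) and the Col4a6 stretch is chrX:141474077-141474326 (minus strand, 250 bases).
Col4a5: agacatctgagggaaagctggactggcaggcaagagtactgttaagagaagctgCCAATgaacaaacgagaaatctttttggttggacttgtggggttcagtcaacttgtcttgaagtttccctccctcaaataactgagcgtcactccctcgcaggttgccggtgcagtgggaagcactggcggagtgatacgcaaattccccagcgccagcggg
Col4a6: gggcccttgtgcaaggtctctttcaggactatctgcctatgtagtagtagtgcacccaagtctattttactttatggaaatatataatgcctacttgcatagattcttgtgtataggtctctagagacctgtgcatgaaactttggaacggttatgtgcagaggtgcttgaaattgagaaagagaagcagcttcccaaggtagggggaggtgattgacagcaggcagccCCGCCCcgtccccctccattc
CCAAT occurred 1 time upstream of Col4a5 and 0 times upstream of Col4a6. GGGCGG occurred 1 time in the 250 bases before each RefSeq start, for Col4a5 within the bases left out. Over the 250 bases before the start in all 32851 RefSeq windows, CCAAT was present in 33.8% and GGGCGG in 32.7%. Of the 47 windows that matched 43 of the 59 collagen and enzyme genes, 28 (59.6%) held GGGCGG and 16 (34.0%) held CCAAT. A match to these letters describes the window only.

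Type VI collagen was the main collagen of these cells, and of its abundant chains Col6a3 fell, Col6a2 fell close to the threshold and Col6a1 did not pass. The filament unit is a trimer with 1 chain each of Col6a1, Col6a2 and a longer chain, most often Col6a3. Col6a1 had 6319 and 6242 CPM in BORG-expressing cells and 5693 and 5736 CPM in parental cells. The BORG-expressing libraries were both above the parental ones, but the difference of 0.14 ± 0.08 on the log2 scale did not pass (edgeR adjusted p = 0.215). Col6a3 (chromosome 1, 90765923 to 90843971, minus strand) had 2544 and 2489 CPM in BORG-expressing cells, against 3818 and 3951 CPM in parental cells. It fell by 0.63 ± 0.09 (edgeR adjusted p = 0.00229), and its libraries did not overlap; with limma on log2(FPKM + 1) the fall was 0.54 and its adjusted p 0.193, the highest over the alternatives (lowest 6.17e-23). Col6a2 had 1974 and 2286 CPM in BORG-expressing cells, against 2807 and 2586 CPM in parental cells. It fell by 0.34 ± 0.11 (edgeR adjusted p = 0.048), a call lost in 8 of 13 alternatives, among them leaving out BORG replicate 1 (adjusted p = 0.164), parental replicate 1 (0.192) or parental replicate 2 (0.114); over all alternatives it ran from 6.4e-11 to 0.68.

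The balance of the chains was also taken within each library, where its depth drops out. A gap between FPKM and fragments that differs from gene to gene does not drop out. Col6a3 FPKM were 0.173 and 0.193 of Col6a1 FPKM in BORG-expressing cells, against 0.301 and 0.336 in parental cells. Col6a2 FPKM were 0.342 and 0.349 of Col6a1 FPKM in BORG-expressing cells, against 0.503 and 0.454 in parental cells. Both ratios were lower in each BORG-expressing library than in each parental library. The same held for ratios of fragments. For Col6a3 they were 0.403 and 0.399 in BORG-expressing cells against 0.671 and 0.689 in parental cells. For Col6a2 they were 0.312 and 0.366 against 0.493 and 0.451. Col6a1 and Col6a2 lie on the same strand of chromosome 10, with 85162 bp between them. The alternative long chains Col6a4, Col6a5 and Col6a6 were close to absent. Col6a4 had 0 and 1 fragments in BORG-expressing cells against 10 in each parental library. Col6a5 had 1 and 4 in BORG-expressing cells against 10 and 11 in parental cells. Col6a6 had 0 in each BORG-expressing library and 0 and 5 in the parental libraries. These 3 genes were not tested.

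**Figure D3:**
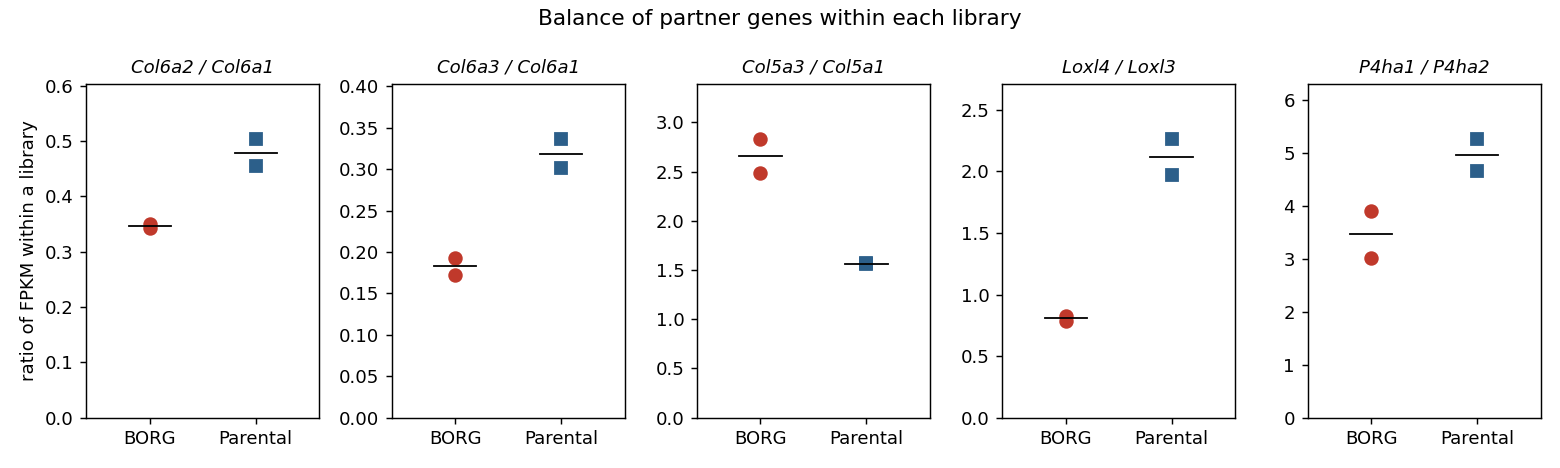
Ratio of FPKM of partner genes within each library, for BORG-expressing (circles) and parental (squares) cells, with a line at the mean of 2 libraries and each axis starting at 0. Relative to Col6a1, Col6a2 and Col6a3 are lower in both BORG-expressing libraries, Col5a3 is higher relative to Col5a1 (2.83 and 2.49 against 1.57 and 1.56), and Loxl4 over Loxl3 is below 1 in BORG-expressing cells and above it in parental cells.

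The fibril-associated collagens, which sit on the surface of fibrils and interrupt their own helix, had 2 of 4 tested genes higher and the other two past no threshold. Col12a1, which links fibrils to surrounding matrix, had 104 and 91.4 CPM in BORG-expressing cells, against 45.4 and 48.5 CPM in parental cells. Its rise was 1.05 ± 0.12 on the log2 scale (edgeR adjusted p = 0.00106). Col20a1 had 7.83 and 9.76 CPM in BORG-expressing cells, against 1.43 and 1.75 CPM in parental cells. It was higher by 2.47 ± 0.27 (edgeR adjusted p = 9.98e-04). Both kept their direction and stayed past the threshold in every alternative in which they were fitted. Col16a1 had 18.7 and 20.4 CPM in BORG-expressing cells and 14.2 and 14.7 CPM in parental cells, and lay just outside the threshold (0.44 ± 0.15, edgeR adjusted p = 0.0518). Col9a3 had 0.45 ± 0.39 (edgeR adjusted p = 0.404).

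Col7a1, which forms the anchoring fibrils that hold epithelia to the dermis, had 16.0 and 15.0 CPM in BORG-expressing cells, against 8.28 and 8.78 CPM in parental cells. Its rise was 0.86 ± 0.16 on the log2 scale (edgeR adjusted p = 0.00744), with no overlap between groups; limma on log2(FPKM + 1) gave an adjusted p of 0.117 (1.98e-06 to 0.135 over the alternatives). Col18a1, a basement membrane proteoglycan whose carboxy-terminal fragment is endostatin, was abundant. It had 657 and 757 CPM in BORG-expressing cells and 893 and 842 CPM in parental cells, and the difference of -0.29 ± 0.11 did not pass (edgeR adjusted p = 0.0665), although it did without BORG replicate 2 (-0.40, adjusted p = 0.0217, and 4.48e-06 to 0.777 over the alternatives). Col15a1, the other member of that subclass, did not pass (1.84 ± 0.76, edgeR adjusted p = 0.0967). Col8a1, the short-chain collagen of endothelial and corneal basement membranes, had 319 and 270 CPM in BORG-expressing cells and 274 and 303 CPM in parental cells. Its groups overlapped (0.03 ± 0.12, edgeR adjusted p = 0.877), while its usual partner Col8a2 had at most 9 fragments in any library. Of the membrane-spanning collagens, Col17a1, a hemidesmosome protein, had a change of 0.76 ± 0.32 (edgeR adjusted p = 0.102) and passed without BORG replicate 2 (1.15, adjusted p = 0.00745, and 0.00511 to 0.435 over the alternatives), and Col23a1 did not pass (edgeR adjusted p = 0.172).

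The enzymes gave 6 of 13 tested genes higher, 2 lower and 5 not past the threshold, with a median log2 fold change of 0.26. In each family some members rose and others fell or did not pass. Prolyl 4-hydroxylase is a tetramer of 2 alpha subunits, which carry the active site, and 2 beta subunits (P4hb), and the enzyme needs oxygen, iron, oxoglutarate and ascorbate. P4ha1, the main alpha subunit in most cells, had 523 and 483 CPM in BORG-expressing cells, against 269 and 281 CPM in parental cells. It was higher by 0.87 ± 0.10 on the log2 scale (edgeR adjusted p = 0.00117). P4ha2 had 106 and 121 CPM in BORG-expressing cells, against 48.5 and 47.5 CPM in parental cells. Its rise was 1.24 ± 0.12 (edgeR adjusted p = 5.68e-04), the smallest p among the 37 genes. Neither gene had overlapping groups, and both stayed past the threshold in all 13 alternatives. P4ha3 was low and did not pass (2.90 and 5.10 CPM in BORG-expressing cells, 6.35 and 5.45 CPM in parental cells, edgeR adjusted p = 0.243); without BORG replicate 2 its change was -1.02 (adjusted p = 0.0395, the lowest over the alternatives, with 0.59 the highest). P4ha1 was the more abundant subunit, at 3.02 and 3.91 times the FPKM of P4ha2 in BORG-expressing cells and 4.65 and 5.26 times in parental cells. In fragments the ratios were 4.95 and 3.99 in BORG-expressing cells and 5.55 and 5.92 in parental cells. The beta subunit P4hb, which is also the general disulfide isomerase, had 1042 and 998 CPM in BORG-expressing cells and 850 and 920 CPM in parental cells and did not pass (edgeR adjusted p = 0.127).

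The sequences before the RefSeq starts of the alpha subunits are shown because both rose with little replicate spread. P4ha1 and P4ha2 are known targets of hypoxia-inducible factors, whose core letters are ACGTG and GCGTG. Capitals mark ACGTG and GCGTG on either strand in the 250 bases before the RefSeq start on GRCm38.p6, which are chr10:59323046-59323295 (plus strand) for P4ha1 and chr11:54100674-54100923 (plus strand) for P4ha2. GENCODE M21 starts P4ha2 farther upstream, at 54100095, so the P4ha2 stretch lies inside the annotated gene, though in none of its exons. ACGTG is also part of the E-box CACGTG, and GCGTG is also the core read by the aryl hydrocarbon receptor.
P4ha1: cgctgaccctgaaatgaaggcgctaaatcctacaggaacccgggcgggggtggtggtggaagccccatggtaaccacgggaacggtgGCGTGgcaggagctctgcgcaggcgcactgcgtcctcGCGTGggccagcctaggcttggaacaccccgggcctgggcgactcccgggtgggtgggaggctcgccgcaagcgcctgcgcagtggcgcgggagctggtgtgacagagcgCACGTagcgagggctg
P4ha2: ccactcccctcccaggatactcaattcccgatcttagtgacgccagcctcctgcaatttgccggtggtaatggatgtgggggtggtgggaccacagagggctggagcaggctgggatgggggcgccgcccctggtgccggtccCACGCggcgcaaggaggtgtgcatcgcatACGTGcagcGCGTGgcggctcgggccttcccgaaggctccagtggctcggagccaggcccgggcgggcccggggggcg
Each stretch held ACGTG 1 time and GCGTG 2 times, and their GC contents were 69.6% and 70.0% against a median of 52.4% over all windows of that length. Over all 32851 such windows, 16.6% held ACGTG, 28.2% held GCGTG and 6.13% held both. Among the 47 windows of the collagen and enzyme genes, 5 held both. Their genes were P4ha1, P4ha2 and Col11a2, which were higher, Plod3, which did not pass, and Col6a6, which was not tested. These letters describe the windows and say nothing of which factor was bound in these cells.

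Of the lysyl hydroxylases, only Plod2 passed. Plod2 hydroxylates the telopeptides from which the stable cross-links of scar and bone are made. It had 20.3 and 19.97 CPM in BORG-expressing cells, against 10.5 and 11.5 CPM in parental cells. It was higher by 0.88 ± 0.15 on the log2 scale (edgeR adjusted p = 0.00522), with no overlap; on log2(FPKM + 1) limma gave 0.54 and an adjusted p of 0.111, the highest over the alternatives (lowest 1.24e-07). Plod3, which also glycosylates hydroxylysine, had 270 and 293 CPM in BORG-expressing cells and 290 and 282 CPM in parental cells. Its groups overlapped and its change was -0.02 ± 0.10 (edgeR adjusted p = 0.882). Plod1, which acts on the helical part of the chain, had 130 and 147 CPM in BORG-expressing cells and 121 and 111 CPM in parental cells, and did not pass (0.26 ± 0.12, edgeR adjusted p = 0.119). The difference in response between Plod2 and the other two was not tested.

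Of the 5 lysyl oxidases 3 were tested and all 3 passed, with Loxl2 and Loxl3 higher and Loxl4 lower. These enzymes oxidise lysine side chains, after which collagen molecules are joined. Lox and Loxl1 had at most 2 fragments in any library and were not tested. Loxl4 (chromosome 19, 42593982 to 42612813, minus strand) had 36.9 and 45.9 CPM in BORG-expressing cells, against 93.4 and 85.8 CPM in parental cells. It fell by 1.10 ± 0.14 on the log2 scale (edgeR adjusted p = 0.00169), and every BORG-expressing library was below every parental one. Loxl2, which cross-links type IV collagen of basement membranes, had 14 and 47 fragments in BORG-expressing cells against 4 in each parental library. Its CPM were 1.77 and 1.71 in BORG-expressing cells and 0.168 and 0.132 in parental cells, a log2 fold change of 3.50 ± 0.56 (edgeR adjusted p = 0.00404). Loxl3 had 60.6 and 62.8 CPM in BORG-expressing cells, against 46.9 and 48.5 CPM in parental cells. Its rise was 0.37 ± 0.10 (edgeR adjusted p = 0.0298), a call lost in 9 of 13 alternatives, including each library left out in turn (adjusted p = 0.0525 to 0.306; lowest over all alternatives 1.41e-04). Loxl4 FPKM were 0.827 and 0.786 of Loxl3 FPKM in BORG-expressing cells, against 2.26 and 1.97 in parental cells. In BORG-expressing cells Loxl3 was thus the more abundant of the 2 transcripts per length, and in parental cells Loxl4 was. Loxl3 overlaps Htra2 on the opposite strand, and whether the counting used strand is not stated.

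The prolyl 3-hydroxylase family split as well. P3h2, which acts on basement membrane collagen, had 3.28 and 3.02 CPM in BORG-expressing cells, against 8.74 and 6.93 CPM in parental cells. It fell by 1.32 ± 0.25 on the log2 scale (edgeR adjusted p = 0.00718), with no overlap between groups. P3h3, which is needed for lysine hydroxylation of type I collagen together with Plod1 and P3h4, had 9.22 and 8.56 CPM in BORG-expressing cells, against 6.22 and 4.75 CPM in parental cells. It was higher by 0.69 ± 0.22 (edgeR adjusted p = 0.0487), a call lost when any 1 library was left out (adjusted p = 0.0578 to 0.286; lowest over all alternatives 0.00321). P3h4, which has no hydroxylase activity of its own, had 2.78 and 3.46 CPM in BORG-expressing cells and 6.56 and 4.03 CPM in parental cells (-0.73 ± 0.33, edgeR adjusted p = 0.124), and passed without parental replicate 2 (-1.06, adjusted p = 0.0457, and 0.00945 to 0.529 over the alternatives). P3h1, which modifies type I collagen in a complex with Crtap and cyclophilin B, had 58.1 and 56.9 CPM in BORG-expressing cells and 51.3 and 50.4 CPM in parental cells and did not pass (edgeR adjusted p = 0.215).

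Genes that serve collagen before and after these steps were listed in 6 groups with 68 genes reported, of which 48 were tested, 14 were higher and 13 lower, with a median log2 fold change of 0.11 against 0.02 over all genes tested. The 27 called genes are 56.2% of those tested, beside 41.1% of all genes. Of 7 tested genes for proline and ascorbate supply 3 were lower and 1 (Pepd, a dipeptidase that frees proline) higher, with a median of -0.40. Aldh18a1, which makes the proline precursor from glutamate, had 65.9 and 69.2 CPM in BORG-expressing cells, against 442 and 423 CPM in parental cells. It fell by 2.68 ± 0.10 on the log2 scale (edgeR adjusted p = 6.47e-05). Pycr1, which completes proline synthesis in mitochondria, had 3.28 and 4.26 CPM in BORG-expressing cells, against 15.9 and 15.7 CPM in parental cells (edgeR adjusted p = 7.09e-04). Prodh, which degrades proline, was also lower, by 2.54 ± 0.36 on the log2 scale (edgeR adjusted p = 0.00259), so the lower genes included both synthesis and breakdown of proline. The call of Pepd did not hold without parental replicate 2 (0.56, adjusted p = 0.0847, the highest over the alternatives; lowest 1.88e-06).

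Among 12 tested folding genes 3 were higher and 3 lower. Serpinh1, the collagen chaperone HSP47, had 650.5 and 712 CPM in BORG-expressing cells, against 1170 and 1047 CPM in parental cells. It fell by 0.70 ± 0.10 on the log2 scale (edgeR adjusted p = 0.00304), and with limma on log2(FPKM + 1) the fall was 0.55 and its adjusted p 0.231, the highest over the alternatives (lowest 1.0e-17). Hspa5, the general chaperone BiP of the endoplasmic reticulum, fell by 1.13 ± 0.14 (edgeR adjusted p = 0.0014). Fkbp14, a prolyl isomerase that acts on collagen, had 46.7 and 41.2 CPM in BORG-expressing cells, against 10.97 and 10.1 CPM in parental cells (2.06 ± 0.14, edgeR adjusted p = 2.2e-04), and its relative Fkbp7 rose by 1.52 ± 0.18 (edgeR adjusted p = 0.00149). Fkbp9 was the other gene called higher, and Colgalt1, which adds galactose to hydroxylysine, the other called lower; Colgalt1 lost its call without BORG replicate 1 (-0.30, adjusted p = 0.124), parental replicate 1 (-0.48, 0.0673) or parental replicate 2 (-0.37, 0.175), and over all alternatives its adjusted p ran from 5.66e-07 to 0.237.

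Of 13 export genes 4 were higher and 3 lower. Creb3l2, a transcription factor that drives the secretory machinery for collagen in cartilage, rose by 1.28 ± 0.14 on the log2 scale (edgeR adjusted p = 9.97e-04). The vesicle-coat genes Sec23a (0.74 ± 0.12, edgeR adjusted p = 0.00429), Sec24c (0.61 ± 0.11) and Sec24d (0.36 ± 0.11) were higher. Sec23a lost its call in both limma fits on FPKM (adjusted p = 0.0589 and 0.0561; lowest over the alternatives 4.49e-15). Mia2, whose product helps load bulky cargo into vesicles, fell by 1.16 ± 0.14 (edgeR adjusted p = 0.00132), and Tfg and Sec23b were also lower. The calls of Sec24d and Sec23b were lost when most single libraries were left out: Sec24d kept its call without BORG replicate 1 and otherwise had adjusted p of 0.14 to 0.269, Sec23b had 0.0513 to 0.134, and Tfg had 0.0739 without parental replicate 2. Over all alternatives the adjusted p ran from 2.63e-06 to 0.269 for Sec24d, from 1.64e-05 to 0.204 for Sec23b and from 3.45e-08 to 0.0914 for Tfg.

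Of 4 tested genes of propeptide cleavage, Bmp1, the carboxy-terminal propeptidase, was higher by 0.43 ± 0.10 (edgeR adjusted p = 0.0139) and Adamts14, an amino-terminal propeptidase, had a log2 fold change of -0.41 ± 0.13 (edgeR adjusted p = 0.0499). Bmp1 did not pass without either parental replicate (0.39 without parental replicate 1 and 0.40 without parental replicate 2, adjusted p = 0.156 in both, and 6.22e-09 the lowest over the alternatives), and Adamts14 did not pass without BORG replicate 1 (adjusted p = 0.131), parental replicate 1 (0.226) or parental replicate 2 (0.0595; over all alternatives 6.04e-05 to 0.661). Pcolce, an enhancer of Bmp1, did not pass (0.36 ± 0.12, edgeR adjusted p = 0.0589) but did without BORG replicate 1 (0.46, adjusted p = 0.0303, and 1.81e-05 to 0.333 over the alternatives), and Adamts2 did not pass.

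On the receptor side 3 of 8 tested genes were higher and 2 lower. Ddr2, a receptor tyrosine kinase activated by fibrillar collagen, had 332 and 301 CPM in BORG-expressing cells, against 723 and 794 CPM in parental cells. It fell by 1.26 ± 0.11 on the log2 scale (edgeR adjusted p = 3.83e-04). Its relative Ddr1, the form typical of epithelia, had 38.8 and 51.2 CPM in BORG-expressing cells and 60.8 and 54.4 CPM in parental cells and did not pass (edgeR adjusted p = 0.127), although without BORG replicate 2 it was at -0.57 (adjusted p = 0.0159, and 5.56e-04 to 0.613 over the alternatives). Of the integrin alpha chains that bind collagen, Itga10 rose by 1.59 ± 0.17 (edgeR adjusted p = 8.8e-04) and Itga1 fell by 1.63 ± 0.34 (edgeR adjusted p = 0.0108). Adgrg1, an adhesion receptor for type III collagen, was higher by 1.04 ± 0.17 (edgeR adjusted p = 0.00476). Lair1 was also higher (2.82 ± 0.60, edgeR adjusted p = 0.0116). It had only 27 and 42 fragments in BORG-expressing libraries and 7 and 11 in parental libraries. Of 4 tested matrix proteins that bind collagen, Thbs1 rose by 1.75 ± 0.10 (edgeR adjusted p = 1.13e-04) and Postn by 2.93 ± 0.36 (edgeR adjusted p = 0.0015). Postn had 49 and 139 fragments in BORG-expressing libraries and only 14 and 26 in parental libraries. Fn1 fell by 1.17 ± 0.11 (edgeR adjusted p = 6.26e-04) and Sparc did not pass (edgeR adjusted p = 0.0665).

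**Figure D4:**
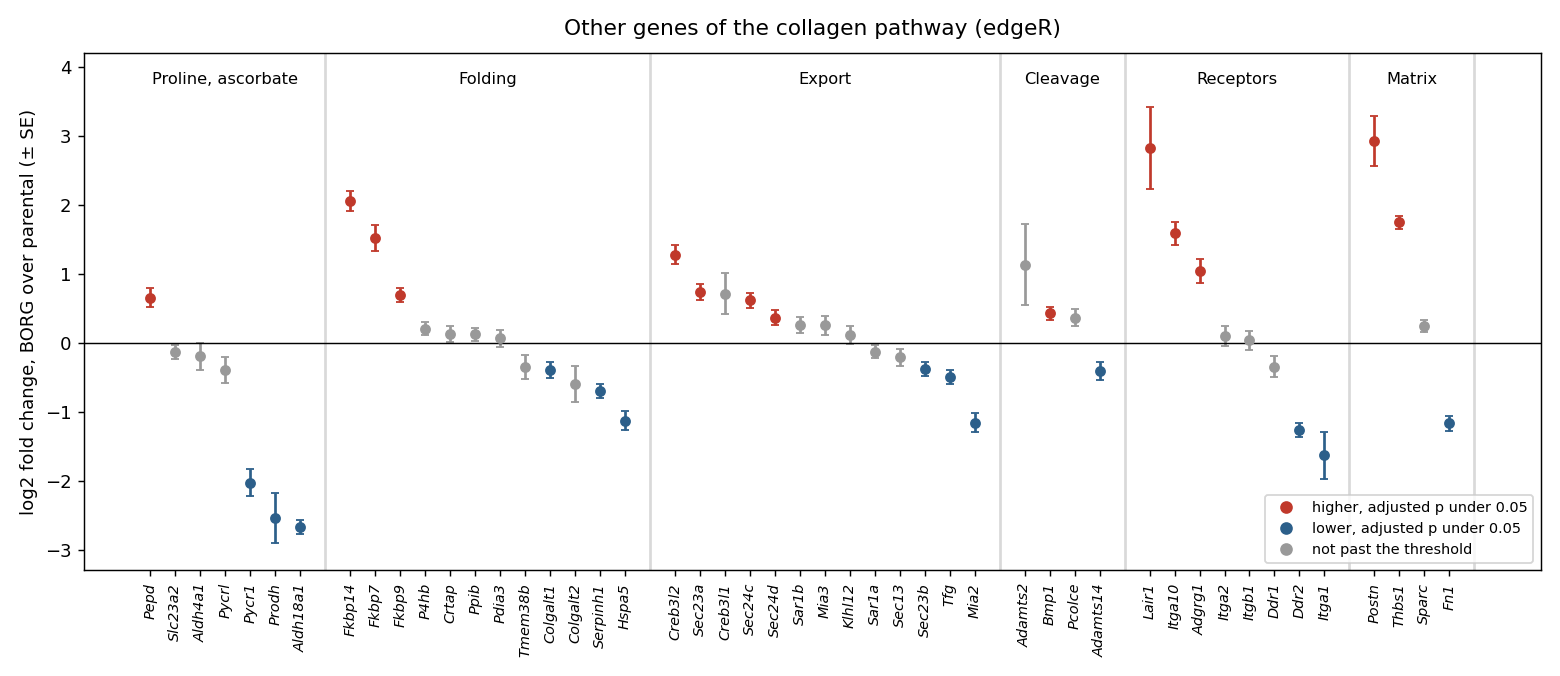
Log2 fold change of BORG-expressing over parental cells, with its standard error, for the 48 tested genes that serve collagen, in 6 groups from proline supply to matrix partners. Red, blue and grey mark genes called higher, called lower and past no threshold; the proline and ascorbate group has 3 blue points and 1 red, and every other group holds both colours.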

How the data were processed

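The table deposited by the authors gives, for each identifier and library, values headed raw_frags and FPKM, and its columns are those of a Cufflinks read-group table. The raw_frags values, not whole in 2.83% of cases, were taken to be expected counts of fragments, which the header does not state. The submitters' processing notes name FastQC, Trim Galore, TopHat and Cufflinks without versions, and the builds GRCm38, mm10 and mm8; coordinates here are GENCODE M21 on GRCm38. The strand setting of the counting is not given in the sources used here. After rounding, the expected counts that the authors deposited entered the two-sided quasi-likelihood F test of edgeR 4.0.16 (R 4.3.3), with filterByExpr, TMM normalization, Benjamini-Hochberg adjustment over 15116 genes and a threshold of 0.05. The FPKM deposited by the authors were used for levels and, as log2(FPKM + 1) or log2(FPKM + 0.1), in limma 3.58.1. In all, 2 columns of scaled fragments were not used.

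The table's conditions BORG and Empty, with replicates numbered from 0, were read as BORG and parental replicates 1 and 2. Standard errors are the log2 fold change over the square root of F. CPM are fragments scaled with TMM factors. Same-group libraries were not copies (chi-square per degree of freedom 21.4 for BORG and 81.2 for parental). The p-values reflect only the spread of the sequenced libraries; the biological coefficient of variation was 0.168. Fold changes rest on depths that differ by up to 3.84-fold, and the 22 genes under the filter have no test.

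All 59 symbols were found, 15 of them after the version of the identifier was removed; 19 of the genes overlap an annotated gene on the same strand and 24 on the opposite strand. The genes and the lists were chosen with earlier results of these data known. Values are given for every called gene and, in each class, for the 3 of highest mean FPKM; of the other lists, up to 4 per list with the smallest p were to be named. Some genes of the lists are not reported here and are left out of the counts. P4hb, Ddr1, Fkbp9, Colgalt1, Sec24d, Tfg, Sec23b and Lair1 lie outside that rule and were named after their values were seen. Motifs were searched on both strands of the 250 bases before each RefSeq start. Alternatives were RLE and upper-quartile factors, DESeq2 1.42.0, limma on FPKM, other filters, the replicate number as a block and each library left out. A block with the replicate numbers crossed was added after the data had been seen.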

Additional observations from a re-analysis of the deposited data

How the results depend on the processing

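Over 13 alternatives, 0 of the 19 called genes changed direction and 9 stayed past the threshold wherever they were fitted (Col12a1, Col20a1, Col24a1, Col27a1, Loxl2, Loxl4, P3h2, P4ha1 and P4ha2), while 9 of the 18 not called passed somewhere. Among the latter, Col5a1, Col6a1 and Plod1 passed only with the replicate numbers crossed in a block, the alternative that was added after the data had been seen. With limma on log2(FPKM + 1) 4070 genes were called, 1881 of them higher, against 6220 and 3001; 9 collagen and enzyme genes passed (6 higher, 3 lower), 2 of them fibrillar, 0 type IV, 2 other collagens and 5 enzymes. With log2(FPKM + 0.1) 4204 of all genes (27.8%) were called, 1941 of them higher. Of the collagen and enzyme genes 11 passed there (8 higher, 3 lower), 0 type IV, 2 other collagens and 5 enzymes. Among genes of at least 1 FPKM, 24 of the collagen and enzyme genes were tested and 13 passed (10 higher, 3 lower). These included 2 fibrillar and 3 other collagens, beside 45.9% called of all 12324 genes tested in that setting. The replicate numbers are not stated to mark a shared day, so they were not taken to pair the libraries. Same-numbered libraries deviated in opposite directions (correlation -0.44), which with 2 libraries per group fixes the crossed value at 0.44. With the replicate number as a block 1986 genes were higher, 2204 lower and 15 of the collagen and enzyme genes passed, 0 of type IV. With the numbers crossed in the block, an alternative added after the data had been seen, 4619 were higher and 4700 lower, and 28 of the collagen and enzyme genes passed, 8 of them lower and 9 of them other collagens. Leaving out each library left 1 library in a group, so counts of called genes from those fits are not set beside the others. Log2 fold changes near 0 turned: Plod3 was 0.040 with upper-quartile factors, 0.13 with either limma fit and -0.082 to 0.028 over the left-out libraries; Col8a1 was -0.035 and -0.036 with the limma fits, -0.025 with no filter and -0.10 to 0.15 over them; over the same libraries Col4a1 ran from -0.45 to 1.10, Col1a1 from -0.090 to 0.48 and Col3a1 from -0.29 to 1.41. The causes were not tested. Where a group was left with 1 library, it was assumed to vary like the other group. Depth limits the untested genes and genes with few fragments in at least 1 group, such as Col5a2, Loxl2, Col24a1, Lair1, Postn, Prodh and Itga1.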
